A study of Mus musculus with 15 samples.

Results

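The 10 lysosomal cathepsins Ctsa, Ctsb, Ctsc, Ctsd, Ctsf, Ctsh, Ctsk, Ctsl, Ctss and Ctsz were taken by symbol from the 56953 genes listed for each of 15 mRNA libraries of primary mouse hepatocytes. All 10 matched 1 Ensembl gene ID each, and all 10 were among the 17975 genes that passed a filter on low counts. The libraries fell into 4 groups: ΔEGFR mice given CCl4 (n = 4), ΔEGFR mice given mineral oil (n = 4), WT mice given CCl4 (n = 3) and WT mice given mineral oil (n = 4). CCl4, carbon tetrachloride, injures the liver once hepatocyte enzymes have made a radical of it, and mineral oil is the usual carrier. ΔEGFR is the name the labels give to the altered EGFR genotype, after the receptor for epidermal growth factor. The series title places the study in the fibrotic liver. The labels used here do not give strain, age, dose, duration, the promoter that drives ΔEGFR or the cells it is active in. They do not say whether libraries came from separate animals either, so the p-values reflect only how these libraries vary, which may in part be technical.

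Cathepsins are the proteases of the lysosome. They are made as inactive precursors, sorted to the lysosome largely through mannose 6-phosphate tags, and activated there at acid pH, where they break down proteins delivered by autophagy and endocytosis. Ctsd is an aspartic protease, Ctsa is a serine carboxypeptidase, and the other 8 are cysteine proteases of the papain family. In the liver, hepatocytes carry a large lysosomal compartment, and macrophages, which digest dead cells, are rich in cathepsins. TFEB and its relatives MITF, TFE3 and TFEC are transcription factors of lysosomal genes that bind the CLEAR element, which is built on the letters CACGTG.

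Promoters of 3 members are shown because Ctsd, Ctsa and Ctss are described below and hold the letters searched: Ctsd and Ctsa hold the flanked CLEAR core TCACGTGA, and Ctss holds the letters GAGGAAGT, which PU.1, a transcription factor of macrophages and other blood cells, can bind. Each window runs from 250 bases before to 50 bases after a gene start, in RefSeq on GRCm38.p6, 5′ to 3′ on the strand of the gene. Capitals mark CACGTG, TCACGTGA and, read on the opposite strand, GAGGAAGT.
Ctsd, chr7:142387778-142388077, minus strand: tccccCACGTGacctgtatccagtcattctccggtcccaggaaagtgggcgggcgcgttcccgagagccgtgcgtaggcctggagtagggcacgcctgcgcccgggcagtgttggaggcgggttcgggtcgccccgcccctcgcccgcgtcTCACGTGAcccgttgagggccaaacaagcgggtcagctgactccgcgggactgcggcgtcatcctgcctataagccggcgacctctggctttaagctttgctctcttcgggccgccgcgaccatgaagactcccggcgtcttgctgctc
Ctsa, second of its starts, chr2:164833523-164833822, plus strand: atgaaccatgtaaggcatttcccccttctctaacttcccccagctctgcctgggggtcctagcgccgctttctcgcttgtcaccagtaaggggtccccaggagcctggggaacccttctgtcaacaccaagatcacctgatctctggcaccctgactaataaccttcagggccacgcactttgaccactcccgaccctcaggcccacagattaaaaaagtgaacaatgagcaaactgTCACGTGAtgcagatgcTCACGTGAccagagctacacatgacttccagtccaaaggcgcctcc
Ctss, chr3:95526536-95526835, plus strand: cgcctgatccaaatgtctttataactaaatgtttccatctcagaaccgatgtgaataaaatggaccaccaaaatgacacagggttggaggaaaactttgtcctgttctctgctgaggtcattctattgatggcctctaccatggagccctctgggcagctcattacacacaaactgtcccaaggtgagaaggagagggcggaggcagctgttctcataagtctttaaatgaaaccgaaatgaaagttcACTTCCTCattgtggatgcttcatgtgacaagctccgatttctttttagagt
Counting the gene start as position 1 with no position 0, TCACGTGA began at position -99 in Ctsd and at positions -13 and 5 in Ctsa. A further CACGTG began at position -245 in Ctsd, and GAGGAAGT lay at position -2 in Ctss. The set of RefSeq promoters used here held 9 promoters of 8 members and had no entry for Ctsb and Ctsh, whose promoters were thus not searched. Both strands were searched, and every TCACGTGA also counts as a match to the shorter motif. The motif CACGTG occurred in 4 of the 9 promoters, those of Ctsa, Ctsd, Ctsf and Ctsl, against 7.15% of 32851 promoters of the same length. TCACGTGA occurred in 2 of the 9, against 0.974% of all promoters, and GAGGAAGT in 2 of the 9, Ctsc and Ctss, against 3.2%. The promoters of Ctsk and Ctsz and the first start of Ctsa held none of these letters. A match of letters is a description and does not show binding.

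A gene is called here where its adjusted p was under 0.05 in edgeR's quasi-likelihood test. Markers of the labelled cell type were detected: 9 of 10 hepatocyte markers matched a gene, and none was at 0 in every library. Their summed level was 64460 to 111600 TPM under CCl4 and 42880 to 106100 TPM in mineral oil, with 1 of 9 called lower in ΔEGFR and 4 of 9 in WT. Their presence does not show how pure the hepatocytes were. All 13 macrophage markers, among them Csf1r, Cd68, Lyz2 and the complement genes C1qa to C1qc, were detected too. Their summed level was 2522 to 7494 TPM in ΔEGFR CCl4, 50.5 to 1261 TPM in ΔEGFR mineral oil, 2558 to 8169 TPM in WT CCl4 and 84.1 to 1843 TPM in WT mineral oil, and none of the 13 was at 0 in every library of a group. In ΔEGFR 0 of 13 and in WT 2 of 13 were called higher under CCl4, with positive values for all 13 in both. The 8 markers of scar-associated macrophages, a lipid-handling type that gathers in damaged liver, summed to 1765 to 3588 TPM in ΔEGFR CCl4, 61.4 to 282.5 TPM in ΔEGFR mineral oil, 1270.0 to 8234 TPM in WT CCl4 and 136 to 227 TPM in WT mineral oil, with 2 of 8 called in ΔEGFR and 6 of 8 in WT. The 6 Kupffer cell markers, of the resident macrophages, summed to 636 to 2134 TPM under CCl4 and 11.7 to 708 TPM in mineral oil, with 0 called in either genotype. Stellate cell markers summed to 118 to 477.5 TPM in ΔEGFR CCl4 and 19.6 to 131 TPM in ΔEGFR mineral oil, and to 92.2 to 313 TPM in WT CCl4 and 17.0 to 93.6 TPM in WT mineral oil, with 0 and 3 of 12 called higher in ΔEGFR and WT. Endothelial markers summed to 179 to 397 TPM in ΔEGFR CCl4 and 34.04 to 134 TPM in ΔEGFR mineral oil, and to 129.6 to 256.5 TPM in WT CCl4 and 28.4 to 359 TPM in WT mineral oil, with 0 of 10 called in either genotype. Monocyte markers summed to 21.4 to 70.1 TPM (median 49.3) in ΔEGFR CCl4 and 0.79 to 38.8 TPM (7.64) in ΔEGFR mineral oil, with 0 of 4 called. In WT they summed to 36.8 to 88.5 TPM (84.5) under CCl4 and 0.52 to 69.6 TPM (4.93) in mineral oil, with 1 of 4 called. The ranges overlapped in both genotypes. B cell markers summed to 20.6 to 70.2 TPM (median 35.3) in ΔEGFR CCl4 and 5.01 to 26.6 TPM (11.7) in ΔEGFR mineral oil. In WT they summed to 12.8 to 78.3 TPM (62.6) under CCl4 and 5.98 to 93.6 TPM (14.7) in mineral oil, with 0 of 5 called in either genotype. T or NK cell markers summed to 9.72 to 20.5 TPM (median 13.7) in ΔEGFR CCl4 and 1.64 to 14.6 TPM (5.485) in ΔEGFR mineral oil. In WT they summed to 3.6 to 26.4 TPM (24.8) under CCl4 and 0.93 to 129.4 TPM (3.65) in mineral oil. The 129.4 TPM was that of WT mineral oil replicate 1, and replicates 2, 3 and 4 had 1.6, 0.93 and 5.7 TPM. In the fit that included replicate 1, all 8 were positive in ΔEGFR and 0 in WT, with 0 called. The part of these other cell types in the cathepsin values was not tested. No cathepsin is in any of these lists. Fewer cells of a type and less RNA per cell cannot be told apart in such libraries. WT mineral oil replicate 1 stood apart from its group, with the 1843 TPM of macrophage markers and with neutrophil markers summing to 5359 TPM, so results are also given without it where it moved them. Library totals ran from 51.7 to 61.9 M counts in 6 libraries and from 96.2 to 155.4 M counts in 9, and the classes were uneven over the groups, with all 4 ΔEGFR mineral oil libraries in the deeper class and 3 of 4 WT mineral oil libraries in the shallower.

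The cathepsins parted into genes that were far above their mineral oil level under CCl4 in both genotypes and genes that were not. Ctsd, Ctsb and Ctsk passed the test for CCl4 against mineral oil in ΔEGFR and in WT, and Ctsa, Ctss and Ctsz passed it in WT. In ΔEGFR 3 of 10 were called higher and 0 lower, where 1.77% of the 17975 tested genes were called higher and 2.38% lower. In WT 6 of 10 were called higher and 0 lower, where 5.31% were called higher and 7.2% lower. The median log2 fold change of the 10 was 0.92 in ΔEGFR and 0.87 in WT, beside -0.02 and -0.03 over all tested genes. Every CCl4 library lay above every mineral oil library for 5 of 10 cathepsins in ΔEGFR, where 12.3% of all genes did so, and for 6 of 10 in WT, where 12.1% did. Levels compared between libraries below are CPM, a gene's counts relative to the total of its library, with totals scaled by TMM factors.

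**Figure D1:**
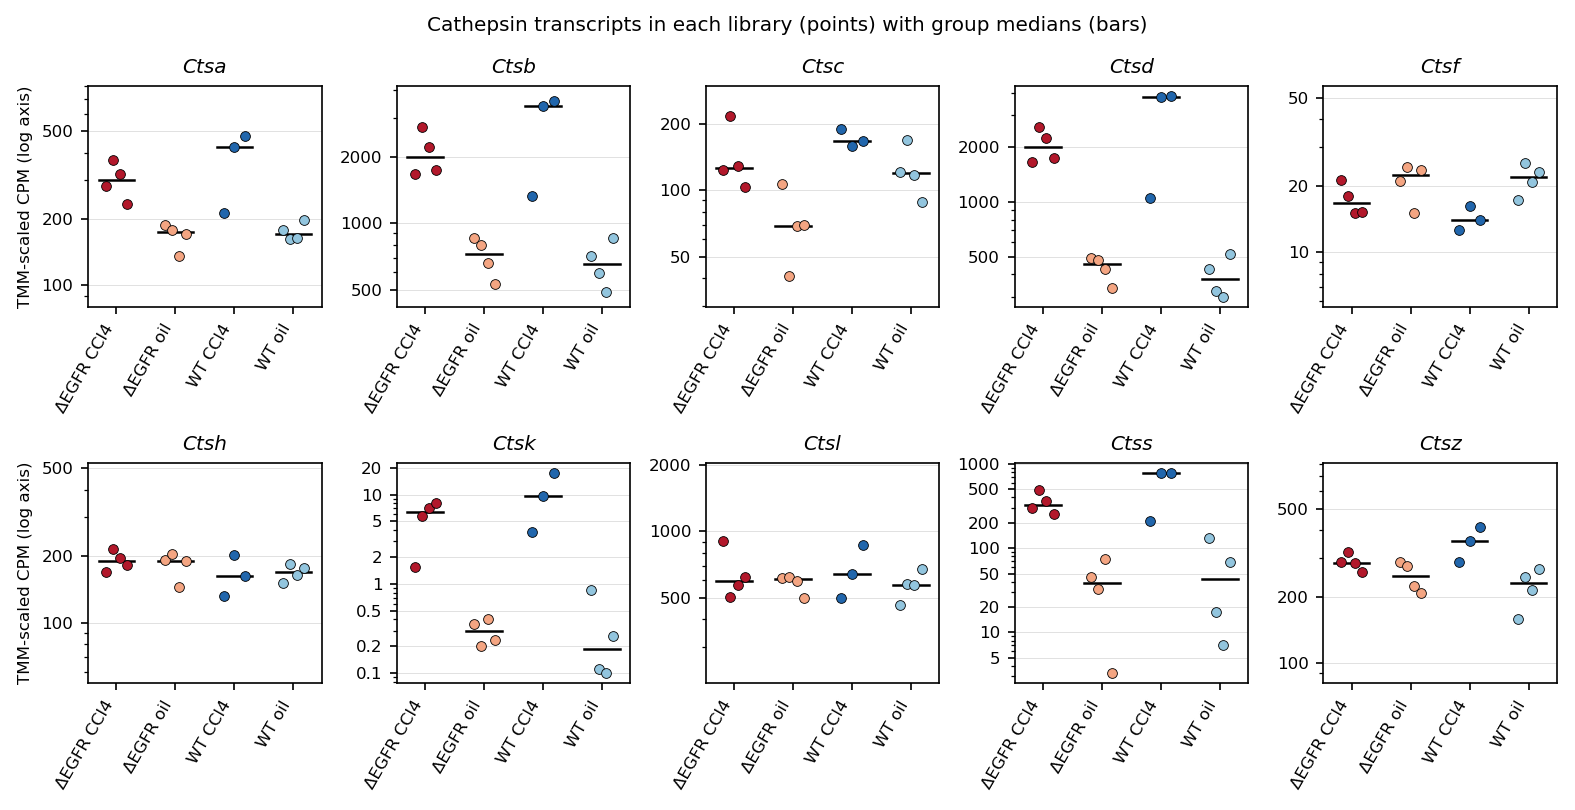
Level of each cathepsin in CPM on a log axis, 1 point per library and a bar at the group median, with the 4 groups from left to right as named. Ctsd and Ctsb lie above every mineral oil library in all 7 CCl4 libraries, Ctsh and Ctsl overlap in all groups, and Ctss spans from 3.26 to 132 CPM within mineral oil.

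Ctsd, the aspartic protease (ENSMUSG00000007891), had 1661, 2591, 2256 and 1743 CPM in ΔEGFR CCl4 and 489, 479, 429 and 335 CPM in ΔEGFR mineral oil. In WT it had 1053, 3805 and 3839 CPM under CCl4 and 428, 325, 301 and 521 CPM in mineral oil. The groups did not overlap in either genotype, and WT CCl4 replicate 1 was the lowest of the CCl4 libraries. The log2 fold change was 2.25 ± 0.36 (SE) in ΔEGFR (adjusted p = 0.0107) and 2.88 ± 0.38 in WT (adjusted p = 0.00344), 4.76-fold and 7.37-fold. It was called in both genotypes in all 15 fits that each left out 1 library.

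Ctsa, the serine carboxypeptidase that also protects lysosomal beta-galactosidase and neuraminidase (ENSMUSG00000017760), had 282, 368, 319 and 234 CPM in ΔEGFR CCl4 and 188, 178, 135 and 171 CPM in ΔEGFR mineral oil. WT libraries had 212, 423 and 473 CPM under CCl4 and 178, 162, 165 and 198 CPM in mineral oil. The groups did not overlap in either genotype. In WT the change was called at 1.07 ± 0.24 (adjusted p = 0.0145), and of the 15 fits that left out a library the call was lost in the one without WT CCl4 replicate 3 (adjusted p = 0.0648). It was also lost when only the WT groups were fitted (adjusted p = 0.0827). In ΔEGFR it was 0.84 ± 0.22 and missed the threshold (adjusted p = 0.0518). It passed there with RLE factors (adjusted p = 0.0496) and with upper-quartile factors (adjusted p = 0.0481). It also passed with only the ΔEGFR groups fitted (adjusted p = 0.033), with a depth class covariate (adjusted p = 0.0378) and by DESeq2 (adjusted p = 0.00624). Of the fits that left out a library, it passed without ΔEGFR CCl4 replicate 4 and without WT CCl4 replicate 1, WT CCl4 replicate 3 or WT mineral oil replicate 1, with adjusted p of 0.0413, 0.0126, 0.0419 and 0.037.

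Ctsb, a cysteine endopeptidase that can also remove dipeptides from protein ends (ENSMUSG00000021939), was close to Ctsd in its pattern. It had 1674, 2727, 2225 and 1753 CPM in ΔEGFR CCl4 and 861, 795, 663 and 530.5 CPM in ΔEGFR mineral oil. WT libraries had 1336, 3414 and 3600 CPM under CCl4 and 715, 598, 487 and 859.6 CPM in mineral oil. The CCl4 and mineral oil libraries did not overlap. The log2 fold change was 1.56 ± 0.31 in ΔEGFR (adjusted p = 0.0232) and 2.07 ± 0.33 in WT (adjusted p = 0.00463). The WT call stood in all 15 fits that left out a library. The ΔEGFR call was lost in 5 of them, without ΔEGFR CCl4 replicate 1, 2 or 3 (adjusted p of 0.0531, 0.0817 and 0.0644) and without ΔEGFR mineral oil replicate 2 or 4 (0.0545 and 0.0809).

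Ctsk, a collagen-degrading cysteine protease best known from osteoclasts (ENSMUSG00000028111), had the lowest median level in each group and the largest fold change of the 10. It had 1.54, 5.74, 6.99 and 8.12 CPM in ΔEGFR CCl4 and 0.359, 0.202, 0.402 and 0.235 CPM in ΔEGFR mineral oil. In WT it had 3.82, 9.68 and 17.7 CPM under CCl4 and 0.863, 0.112, 0.0998 and 0.264 CPM in mineral oil. These are small counts in mineral oil, from 5 to 116 reads per library, against 206 to 3690 reads under CCl4. The groups did not overlap, and WT mineral oil replicate 1 was the highest of the mineral oil libraries. The log2 fold change was 4.21 ± 0.77 in ΔEGFR (adjusted p = 0.0178) and 4.90 ± 0.81 in WT (adjusted p = 0.00536). Without WT mineral oil replicate 1 the WT value was 6.01 (adjusted p = 0.00238), and without WT CCl4 replicate 3 it was 4.29 (adjusted p = 0.0258). In ΔEGFR the call was lost without ΔEGFR CCl4 replicate 2, ΔEGFR mineral oil replicate 2 or ΔEGFR mineral oil replicate 4 (adjusted p of 0.0545, 0.0566 and 0.0662).

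Ctss, the cysteine protease that trims the invariant chain of MHC class II in antigen-presenting cells (ENSMUSG00000038642), is a neighbour of Ctsk on chromosome 3. It had 298, 493.2, 361 and 255 CPM in ΔEGFR CCl4 and 44.9, 32.8, 75.0 and 3.26 CPM in ΔEGFR mineral oil. WT libraries had 208, 774 and 791 CPM under CCl4 and 132, 17.7, 7.10 and 68.5 CPM in mineral oil. No mineral oil library reached any CCl4 library, but the 8 mineral oil libraries differed among themselves by 40.5-fold, more than for any other member. The log2 fold change was 3.17 ± 0.93 in ΔEGFR (adjusted p = 0.0702) and 3.39 ± 0.97 in WT (adjusted p = 0.0384). Without WT mineral oil replicate 1 the WT value was 4.25 (adjusted p = 0.0137). The WT call was lost in 10 of the 15 fits that left out a library, with adjusted p up to 0.122 without WT CCl4 replicate 3. The other 9 were the fits without ΔEGFR CCl4 replicates 2, 3 and 4, ΔEGFR mineral oil replicates 1 and 2, WT CCl4 replicate 2 and WT mineral oil replicates 2, 3 and 4 (adjusted p from 0.0501 to 0.0989). In ΔEGFR it was called without WT mineral oil replicate 1 (adjusted p = 0.0372) or WT mineral oil replicate 3 (adjusted p = 0.0468), and by DESeq2 (adjusted p = 0.00303). The WT call was also lost with no low-count filter (adjusted p = 0.0859) and with only the WT groups fitted (adjusted p = 0.11).

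Ctsz, a carboxypeptidase also called cathepsin X (ENSMUSG00000016256), had a small change that was called in WT. WT libraries had 287, 357 and 413 CPM under CCl4 and 158, 246, 214 and 268 CPM in mineral oil, with no overlap, a log2 fold change of 0.67 ± 0.19 (adjusted p = 0.0387). The ΔEGFR groups overlapped, at 286, 319, 284 and 259 CPM under CCl4 and 285, 275, 223 and 208 CPM in mineral oil, a log2 fold change of 0.21 ± 0.18 (adjusted p = 0.486). The difference between the genotypes in this response was -0.46, with a 95% interval from -0.98 to 0.06 (adjusted p = 1). The WT call was lost in 6 of the 15 fits that left out a library, with adjusted p from 0.0514 to 0.113. These were the fits without ΔEGFR CCl4 replicate 3, ΔEGFR mineral oil replicate 1, WT CCl4 replicates 2 and 3 and WT mineral oil replicates 2 and 3. With only the WT groups fitted the adjusted p was 0.146.

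Ctsl and Ctsh did not pass in either genotype. Ctsl, a broadly expressed cysteine endopeptidase (ENSMUSG00000021477), had 503 to 904 CPM in ΔEGFR CCl4 and 499 to 620 CPM in ΔEGFR mineral oil. In WT it had 499 to 872 CPM under CCl4 and 465 to 679 CPM in mineral oil. Its log2 fold change was 0.16 in ΔEGFR, with a 95% interval from -0.26 to 0.58, and 0.23 in WT, from -0.23 to 0.69. Ctsh, an aminopeptidase (ENSMUSG00000032359), had 170 to 215 CPM in ΔEGFR CCl4 and 145 to 205 CPM in ΔEGFR mineral oil, and 132 to 204 CPM in WT CCl4 and 151 to 185 CPM in WT mineral oil. Its log2 fold change was 0.07 in ΔEGFR (95% interval from -0.24 to 0.37) and -0.03 in WT (from -0.35 to 0.30). For both genes all 4 groups overlapped. The bound farthest from 0 in these intervals was 0.69, which is under 2-fold, but this holds for the main fit only. Over 12 alternative fits, some of which shift the median of all genes, Ctsl ran from 0.06 to 0.67 in ΔEGFR and from 0.12 to 0.99 in WT. Ctsh ran from 0.04 to 0.55 in ΔEGFR and from -0.04 to 0.42 in WT. A change of Ctsl near 2-fold in WT was thus not excluded.

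Ctsc, the dipeptidyl peptidase that activates the serine proteases of immune cell granules (ENSMUSG00000030560), had 124, 216, 129 and 104 CPM in ΔEGFR CCl4 and 106, 40.7, 68.9 and 69.5 CPM in ΔEGFR mineral oil. The ΔEGFR groups overlapped in 1 library each, and the log2 fold change was 1.006 ± 0.29 (adjusted p = 0.0677, with 0.0485 without WT mineral oil replicate 1 and 0.0145 by DESeq2). WT libraries had 189, 158 and 167 CPM under CCl4 and 121, 169, 117 and 88.2 CPM in mineral oil, a log2 fold change of 0.47 ± 0.31 (adjusted p = 0.341). Ctsf, a cysteine protease with a long propeptide (ENSMUSG00000083282), was the only member with a negative value in both genotypes. It had 15.03 to 21.2 CPM in ΔEGFR CCl4 and 15.04 to 24.4 CPM in ΔEGFR mineral oil, a log2 fold change of -0.27 ± 0.18 (adjusted p = 0.355). In WT it had 12.7, 16.3 and 14.0 CPM under CCl4 and 17.2, 25.3, 20.8 and 23.2 CPM in mineral oil, so that every CCl4 library was below every mineral oil library, at -0.59 ± 0.19 (adjusted p = 0.0616). Without WT mineral oil replicate 1 the WT value was called (-0.69, adjusted p = 0.0211), as it was without ΔEGFR mineral oil replicate 3 (adjusted p = 0.0363) and by DESeq2 (adjusted p = 0.0283). The sign of the ΔEGFR value depended on the scaling, as it was 0.23 with library totals alone, where the median of all genes stood at 0.44.

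**Figure D2:**
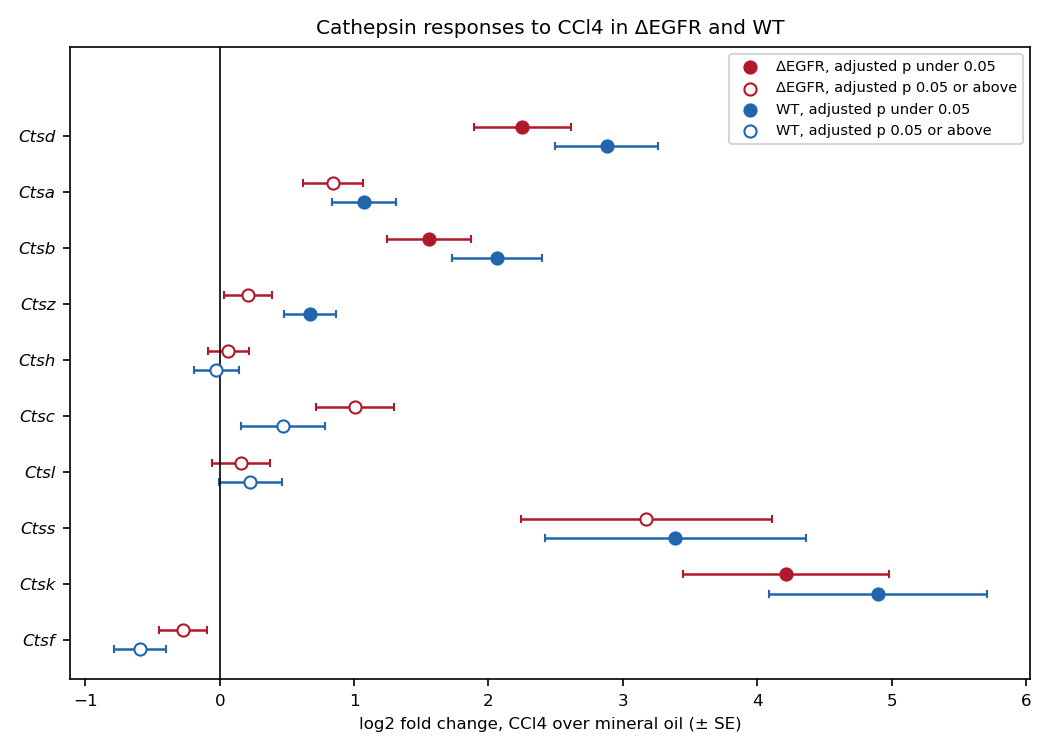
Log2 fold change of CCl4 over mineral oil for each cathepsin with its standard error, ΔEGFR above WT within each gene, filled where the adjusted p was under 0.05. Ctsk, Ctss, Ctsd and Ctsb lie farthest to the right in both genotypes, and the error bars of ΔEGFR and WT overlap for every gene except Ctsz.

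The comparison of ΔEGFR with WT asked whether these genes differed by genotype. No cathepsin was called under CCl4, in mineral oil or in the interaction of genotype and treatment, where 0.0% of all tested genes were called in each comparison. At an unadjusted p under 0.05, edgeR gave 411 genes under CCl4, 1197 in mineral oil and 568 in the interaction. DESeq2 called 2, 0 and 2 genes, and no cathepsin. Under CCl4 the log2 difference of ΔEGFR from WT was -0.49 for Ctsd (95% interval from -1.22 to 0.23), -0.41 for Ctsb (from -1.06 to 0.24), -0.89 for Ctsk (from -2.30 to 0.51) and -0.75 for Ctss (from -2.55 to 1.06). For Ctsd, Ctsb and Ctss, WT CCl4 replicate 1 was below and WT CCl4 replicates 2 and 3 were above all 4 ΔEGFR CCl4 libraries. For Ctsd, Ctsb and Ctsk the interaction was -0.63, -0.51 and -0.68, with 95% intervals from -1.62 to 0.36, -1.39 to 0.37 and -2.65 to 1.28. Ctsc had the lowest unadjusted p of the 10 in mineral oil, with 71.4 ± 26.9 CPM in ΔEGFR and 123.8 ± 33.3 CPM in WT (SD, n = 4 each). Its log2 difference of -0.79 ± 0.29 (unadjusted p = 0.017) did not pass adjustment over all genes (adjusted p = 0.713), and the groups overlapped. Intervals of this width do not show that the genotypes were alike.

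Taken per transcript length, in TPM, a gene's length-corrected share of a library's transcripts, the cathepsin pool was led by different members in the 2 treatments. In mineral oil Ctsl was first in both genotypes, with a median of 599.5 TPM in ΔEGFR and 568.5 TPM in WT, and it exceeded the level of 99.0% of tested genes in each. Ctsb followed at 352 and 329 TPM, then Ctsd at 269.6 and 233 TPM, with Ctsh and Ctsz close behind. The ranges of Ctsd, Ctsh and Ctsz overlapped in both mineral oil groups, so their order is not firm. Under CCl4 Ctsd was first, with a median of 1720 TPM (1320 to 2715) in ΔEGFR and 3192 TPM (855 to 4008) in WT, and Ctsb second at 1294 and 2230.0 TPM. In ΔEGFR CCl4 replicate 1, however, Ctsl at 1371 TPM was above Ctsb at 1113 TPM. Ctsd was above Ctsb in every CCl4 library and below it in every mineral oil library, with a Ctsd to Ctsb ratio of 1.19 to 1.38 in ΔEGFR CCl4 and 0.727 to 0.787 in ΔEGFR mineral oil. In WT the ratio was 1.04 to 1.43 under CCl4 and 0.664 to 0.749 in mineral oil. By median Ctss went up the order to rank 4 in ΔEGFR CCl4, against rank 8 in ΔEGFR mineral oil, and to rank 3 in WT CCl4, against rank 8 in WT mineral oil. These ranks are not firm either. The range of Ctss overlapped those of Ctsc and Ctsf in both mineral oil groups, and WT CCl4 replicate 1 had 274 TPM of Ctss and 686 TPM of Ctsl. By median Ctsk was last in all 4 groups, with 8.51 TPM in ΔEGFR CCl4 and 0.21 TPM in ΔEGFR mineral oil, and 11.6 and 0.175 TPM in the WT groups. Its range overlapped that of Ctsf in WT CCl4, where replicate 3 had 26.3 TPM of Ctsk and 17.42 TPM of Ctsf.

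As a share of the summed TPM of the 10 genes, which does not depend on scaling between libraries, Ctsd made up 30.6% ± 2.40 in ΔEGFR CCl4 and 13.9% ± 0.632 in ΔEGFR mineral oil (SD, n = 4 each). In WT it made up 31.6% ± 6.80 under CCl4 (n = 3) and 12.7% ± 1.98 in mineral oil (n = 4). Ctsb and Ctsd together ranged from 46.7% to 61.9% in the 7 CCl4 libraries and from 26.0% to 34.1% in the 8 mineral oil libraries. The share of Ctsl was 10.4% to 24.4% under CCl4 and 27.1% to 36.0% in mineral oil. Ctsh took 2.89% to 6.62% under CCl4 and 10.4% to 15.5% in mineral oil. None of these ranges overlapped between treatments. The summed level of the 10 was 3589 to 11600 TPM under CCl4, which is 0.359% to 1.16% of all TPM in a library, and 1477 to 2481 TPM in mineral oil, 0.148% to 0.248%. RSEM's mean transcript length stayed within 0.707% for Ctsd over all 15 libraries. That of Ctsh was 1078 to 1177 bases under CCl4 and 1024 to 1080 bases in mineral oil. TPM divides by the effective length instead, which was not compared between libraries.

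**Figure D3:**
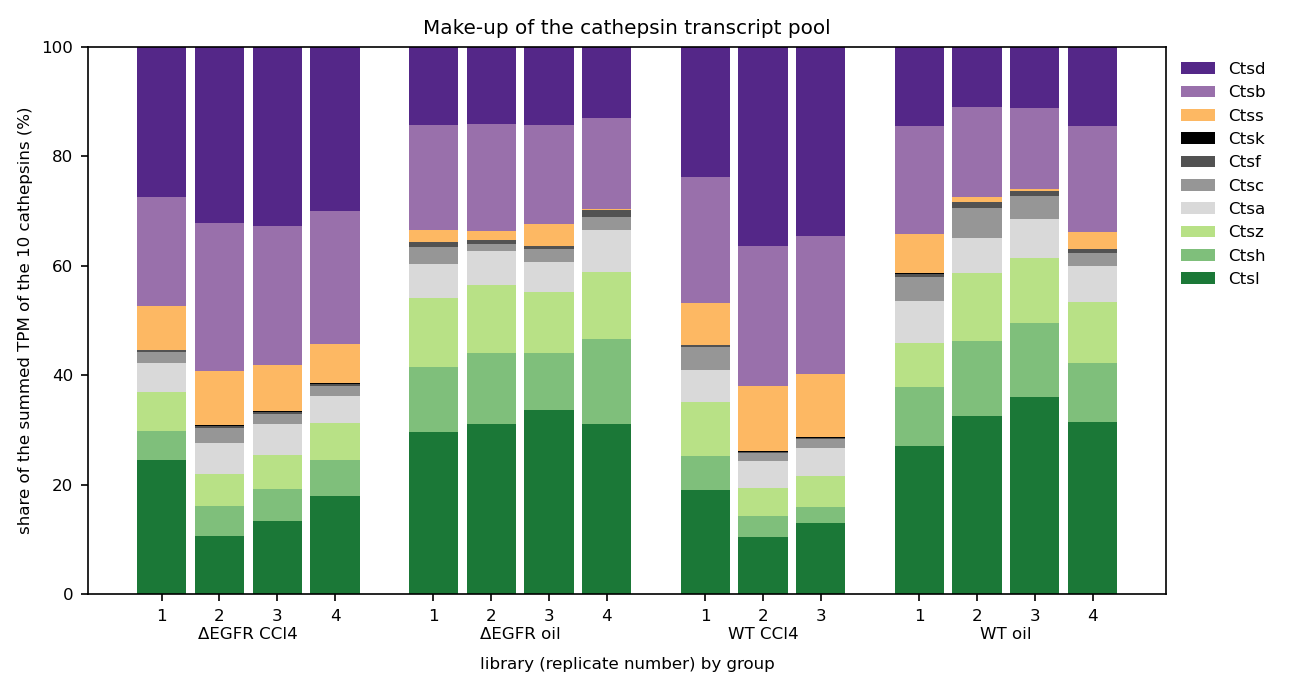
Share of each cathepsin in the summed TPM of the 10, 1 stacked bar per library, with libraries ordered by group from ΔEGFR CCl4 to WT mineral oil. Ctsd and Ctsb at the top fill 46.7% to 61.9% of each CCl4 bar and 26.0% to 34.1% of each mineral oil bar, and Ctsl at the bottom is widest in mineral oil.

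Cathepsins differed in how closely they followed a macrophage score, the mean log2 CPM of the 13 macrophage markers, within a treatment. In the 8 mineral oil libraries the score ran from 0.911 in ΔEGFR replicate 4 to 6.35 in WT replicate 1, and Ctss tracked it with a Pearson r of 0.995 and a Spearman rho of 1.0 (two-sided exact permutation p = 4.96e-05 for each, the smallest that 8 libraries can give, adjusted p = 0.000992 over the 20 relations of 10 genes in 2 treatments). Without the 2 libraries farthest from the median score, r was 0.984. No other member passed in mineral oil. Ctsb had r = 0.791 and Ctsd r = 0.778 (exact permutation, adjusted p of 0.0809 and 0.0918), with r of 0.337 and 0.52 without those 2 libraries, while Ctsa, Ctsc and Ctsz had r of 0.108, 0.009 and 0.018. Ctsk had r = 0.705 and rho = 0.833 (exact permutation, adjusted p of 0.0918 and 0.0513), and r = 0.966 and rho = 0.943 without those 2 libraries (exact permutation, adjusted p of 0.0556 and 0.0557). On log2(TPM + 1) Ctsk passed beside Ctss, with r = 0.748 and rho = 0.922 (exact permutation, adjusted p of 0.0249 and 0.0179). In the 7 CCl4 libraries, where the score ran from 6.41 to 7.70, 5 members passed by r: Ctsa with 0.963, Ctss with 0.939, Ctsb with 0.909, Ctsd with 0.877 and Ctsz with 0.863 (exact permutation, adjusted p of 0.0139, 0.0139, 0.049, 0.049 and 0.0139). By rho these were 0.964, 0.964, 0.893, 0.893 and 0.857, and Ctsz did not pass (exact permutation, adjusted p = 0.068). Without the 2 libraries farthest from the median score, r was 0.97, 0.953, 0.95, 0.94 and 0.828, and 5 libraries cannot give an exact permutation p under 0.0167. Each treatment pools both genotypes, and its depth classes hold 3 to 5 libraries each, too few for a correlation by the minimum of 6 libraries used here, so no r was computed within them.

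The macrophage score of WT mineral oil replicate 1, 6.35, was just under the lowest CCl4 library at 6.41, and its summed neutrophil markers were above the 1114 TPM of the highest CCl4 library. Its Ctss, at 132 CPM, was the highest in mineral oil. Its Ctsd, at 428 CPM, and its Ctsb, at 715 CPM, lay within the range of the other mineral oil libraries, and its scar-associated macrophage markers summed to 162 TPM, within the mineral oil range as well. By comparison ΔEGFR CCl4 replicate 4 and WT CCl4 replicate 1, with macrophage scores of 6.41 and 6.54, had 1743 and 1053 CPM of Ctsd and 255 and 208 CPM of Ctss. Leaving this library out raised the count of cathepsins called higher in ΔEGFR to 6, with Ctsa, Ctsc and Ctss added, and left the same 6 called higher in WT, with Ctsf called lower.

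**Figure D4:**
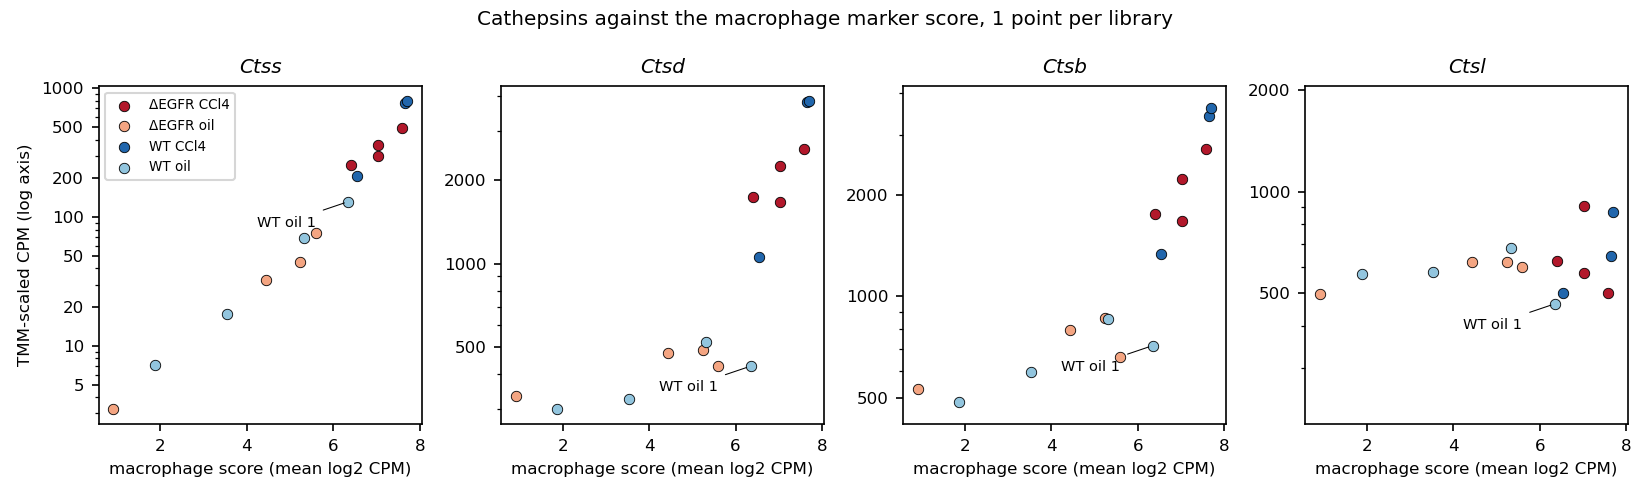
Level of Ctss, Ctsd, Ctsb and Ctsl in CPM on a log axis against the macrophage score, 1 point per library, coloured by group, with WT mineral oil replicate 1 marked as WT oil 1. Ctss climbs along the score through both treatments, while Ctsd and Ctsb stay at 301 to 521 and 487 to 861 CPM throughout mineral oil and stand above that in every CCl4 library.

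With the macrophage score as a covariate the estimates of the called cathepsins were smaller. In ΔEGFR no cathepsin was called, with Ctsd at 1.73 (adjusted p = 0.166), Ctsb at 1.04 (0.362) and Ctsk at 3.13 (0.244). In WT Ctsd at 2.34 (adjusted p = 0.0251), Ctsk at 3.98 (0.0313) and Ctss at 1.08 (0.0488) were called, while Ctsb at 1.52 (0.0524), Ctsa at 0.91 (0.125) and Ctsz at 0.57 (0.251) were not. The score itself differs between the treatments, and with it 2 genes were called in ΔEGFR, against 746 without it, and 324 in WT, against 2250. The value of Ctss was 0.95 in ΔEGFR with the covariate (adjusted p = 0.202) and 3.17 without it, and in WT 1.08 with it and 3.39 without it. Every mineral oil library scored below every CCl4 library, so this fit cannot set the score apart from the treatment. The part of macrophage transcripts in the cathepsin values was not tested.

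In the deeper class of libraries alone, Ctsd was at 2.24 and Ctsk at 4.12 in ΔEGFR (adjusted p of 0.0383 and 0.0414), while Ctsb at 1.56 was not called (adjusted p = 0.0708). That class holds 1 WT library of each treatment, and no WT gene was called in it. In the shallower class Ctsd had 1053 and 3805 CPM in the 2 WT CCl4 libraries and 325, 301 and 521 CPM in the 3 WT mineral oil libraries.

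The genes whose log2 CPM followed each cathepsin most closely over the 15 libraries differed by member, given here as a description over libraries that share treatment and depth. For Ctsd they were Psap, the precursor of the saposins that help lysosomal enzymes degrade sphingolipids (r = 0.996), Pld3, a lysosomal nuclease (0.994), and Atp6v0d2, a proton pump subunit of macrophages and osteoclasts (0.99). For Ctsb they were Pld3, Gusb, the lysosomal beta-glucuronidase, and Psap (0.994 each). For Ctss they were Clec12a, a lectin receptor of myeloid cells, Gltp, a glycolipid transfer protein, and C3ar1, the receptor of complement C3a (0.996, 0.996 and 0.993). For Ctsk they were Cd200, Htra1 and Tm4sf19 (0.981, 0.977 and 0.97), and for Ctsa Abhd12, Atp6v1a and Slc27a1 (0.984, 0.972 and 0.967). Ctsz was nearest to Acp5, the tartrate-resistant acid phosphatase (0.941), and Ctsf to Ube3b (0.96). Ctsh and Ctsl had no close partner, with highest values of 0.798 for Slc7a4 and 0.848 for Txn1, and Ctsc reached 0.884 for Igfbp5. Among the 10 themselves Ctsb and Ctsd were the closest pair (r = 0.994), Ctsh and Ctss were unrelated (0.005), and Ctsf ran against Ctsk (-0.778).

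Other genes of the lysosome were given by list. Of 40 genes of other lysosomal hydrolases and of proteins that help them, such as Psap, 9 were called higher and 1 lower in ΔEGFR. In WT 17 were called higher and 1 lower. The median log2 fold changes were 0.42 in ΔEGFR and 0.50 in WT. Galc, the galactosylceramidase, rose by 2.09 ± 0.35 in ΔEGFR (adjusted p = 0.0133). In WT Psap rose by 2.52 ± 0.38 and Gla, the alpha-galactosidase, by 2.17 ± 0.33 (adjusted p = 0.00382 each). Cpq, a carboxypeptidase, fell by 1.075 ± 0.16 in ΔEGFR on the log2 scale, at 23.7 ± 2.68 CPM under CCl4 and 50 ± 7.74 CPM in mineral oil (SD, n = 4 each, adjusted p = 0.00874). With the macrophage score as a covariate 0 genes of this list were called in ΔEGFR and 6 in WT.

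The V-ATPase, the pump that acidifies the lysosome, had 2 of 16 subunits called higher in ΔEGFR and 11 of 16 in WT, with none called lower. Atp6v0d2 rose by 3.75 ± 0.66 in ΔEGFR, at 54.1 ± 11.7 CPM under CCl4 and 4.0 ± 0.831 CPM in mineral oil (SD, n = 4 each, adjusted p = 0.0158), and by 4.98 ± 0.71 in WT (adjusted p = 0.00352). Atp6v1b2 rose by 1.43 ± 0.30 in ΔEGFR (adjusted p = 0.0256) and by 1.91 ± 0.32 in WT (adjusted p = 0.00536). The count in ΔEGFR depended on the scaling, with 11 of 16 called when only library totals were used, where the median of all genes stood at 0.44, and in WT 1 was called with the macrophage score as a covariate. Of 17 genes of the lysosomal membrane and its lumenal partners 1 was called in ΔEGFR, Npc2, a cholesterol carrier (1.18 ± 0.25, adjusted p = 0.0297), and 3 in WT, which were Npc2, Lamtor1 and Cd63 (1.53, 0.62 and 4.86, adjusted p of 0.00638, 0.0266 and 0.0269). The medians of that list, -0.12 in ΔEGFR and 0.01 in WT, were near those of all genes.

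Of 14 genes that sort enzymes to the lysosome 1 was called higher in ΔEGFR and 5 in WT. In ΔEGFR it was Igf2r, the large mannose 6-phosphate receptor (0.89 ± 0.18, adjusted p = 0.0229). In WT the lowest p belonged to Gga2, an adaptor of that receptor, Gnptab, the enzyme that starts the mannose 6-phosphate tag, and M6pr, the small receptor (0.998, 1.23 and 0.67, adjusted p of 0.00734, 0.0114 and 0.012). Of 9 genes of the TFEB family and its control 1 was called higher in each genotype, Mitf, at 10.4 ± 1.58 CPM in ΔEGFR CCl4 and 4.73 ± 1.77 CPM in ΔEGFR mineral oil (SD, n = 4 each, 1.14 ± 0.29, adjusted p = 0.0468) and by 1.86 ± 0.31 in WT (adjusted p = 0.00549). Zkscan3, a repressor of lysosomal genes, was called lower in WT (-0.57 ± 0.16, adjusted p = 0.0315). Tfeb itself was not called in WT, at 21.3 ± 7.37 CPM under CCl4 (n = 3) and 13.7 ± 3.35 CPM in mineral oil (SD, n = 4, adjusted p = 0.139).

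Of the natural inhibitors of the cysteine cathepsins 2 were called higher in WT. Cstb, the cytosolic cystatin B, rose there by 2.08 ± 0.33 and Cst3, the secreted cystatin C, by 0.81 ± 0.19 (adjusted p of 0.00434 and 0.0174). Cstb had 90.3 ± 26.6 CPM in WT CCl4 (n = 3) and 21.4 ± 4.53 CPM in WT mineral oil (SD, n = 4). In ΔEGFR Cstb was at 1.06 ± 0.30 and Cst3 at 0.55 ± 0.18, without passing (adjusted p of 0.0635 and 0.09), so that 0 of 5 tested inhibitors were called there and 2 of 5 in WT. Kng1, on the same list, went the other way without passing, at -1.03 ± 0.31 in ΔEGFR and -0.97 ± 0.34 in WT (adjusted p of 0.0754 and 0.079). It had 1100 ± 343 CPM in ΔEGFR CCl4 and 2250 ± 439 CPM in ΔEGFR mineral oil (SD, n = 4 each). Of 13 further cathepsin genes 5 were tested. In WT Ctso, a liver-expressed cysteine cathepsin, fell by 0.715 ± 0.16 on the log2 scale, at 24.9 ± 4.11 CPM under CCl4 (n = 3) and 40.8 ± 3.78 CPM in mineral oil (SD, n = 4, adjusted p = 0.0148). Ctsg, a serine protease of neutrophil granules, rose there by 4.37 ± 1.29 (adjusted p = 0.0426) and stayed at a low level, with 2.94 ± 2.69 CPM under CCl4 (n = 3) and 0.136 ± 0.162 CPM in mineral oil (SD, n = 4). No gene of any of these lists was called between ΔEGFR and WT.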

How the data were processed

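Per the labels' protocols, 15 hepatocyte libraries were made with a stranded kit for mRNA. The submitters' processing notes name STAR 2.7.8a, RSEM 1.3.0 and the build GRCm39. Which annotation was used, and whether strand was, is not given in the sources used here. The deposited files give RSEM expected counts, TPM and FPKM per Ensembl gene, 1 file per library, as the authors' RSEM run made them, and FPKM was not used. The same deposited files give the transcript length and effective length that RSEM weighted per gene, in bases. Replicates were numbered in order of deposit, since the labels number none.

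Rounded expected counts went into edgeR 4.0.16 (R 4.3.3). Genes were kept by filterByExpr (minimum count 10, minimum total 15), TMM factors scaled the libraries, and robust quasi-likelihood fits of 1 mean per group to all 15 libraries were adjusted over 17975 genes by Benjamini-Hochberg with a threshold of 0.05. Log2 CPM for scores used a prior count of 2. Deposited TPM values served for levels between genes and shares. Alternatives used RLE, upper-quartile or no factors, other filters, DESeq2 1.42.0, limma 3.58.1 on log2(TPM + 1) or log2(TPM + 0.1), covariates and leaving out each library. The fits were tested on simulated counts with this design and known changes. In the pairwise comparisons 24% to 37% of 2-fold changes and 73% to 83% of 4-fold changes were called in the right direction. In the interaction 3% and 53% were. A gene that was not called may therefore still differ. TPM and library totals alone shift the median log2 fold change of all genes to 0.31 and 0.44 in ΔEGFR and to 0.28 and 0.40 in WT, so changes are given on the TMM scale. The counts of the 21 within-group pairs of libraries differed by more than sampling noise (lowest chi-square per degree of freedom 227.6), so none was treated as 1 library deposited in duplicate. This does not show that libraries came from separate animals.

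Names came from an annotation table of GRCm38 joined by Ensembl ID, and promoters from RefSeq on GRCm38.p6. No coordinate of GRCm39 was used. Protein sequences were not used here. The members and gene lists were chosen with earlier results of these data known. Named genes were all 10 members, the 3 members of each list with the lowest p per genotype, the 3 genes with the highest Pearson r to each cathepsin, and listed cell markers, of which the text prints a selection, and 1 result is not reported here. Counts of reads limit only counting error.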

Additional observations from a re-analysis of the deposited data

How the results depend on the processing

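In the fits without 1 library each, ΔEGFR CCl4 against mineral oil gave 75 to 2145 called genes (746 with all 15) and 1 to 6 called cathepsins (3 with all), and WT gave 575 to 5111 genes (2250) and 3 to 7 cathepsins (6). Over the same fits Ctsh ran from -0.03 to 0.18 and Ctsl from -0.04 to 0.27 in ΔEGFR, and Ctsh from -0.10 to 0.19 in WT. Between ΔEGFR and WT, Ctsl ran from -0.24 to 0.21 under CCl4. In mineral oil Ctsa ran from -0.13 to 0.02, Ctsb from -0.03 to 0.24, Ctsf from -0.14 to 0.09, Ctsk from -0.51 to 0.90, Ctsl from -0.06 to 0.11 and Ctss from -1.06 to 0.32. In the interaction Ctsh ran from -0.07 to 0.22, Ctsl from -0.28 to 0.16 and Ctss from -1.07 to 0.32.

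In ΔEGFR the called genes numbered 1180 with no scaling factor, 470 with no low-count filter, 2410 by DESeq2, 2268 and 2349 by limma on log2(TPM + 1) and log2(TPM + 0.1), 1286 with only the groups compared, 1643 with a depth class covariate, 2 with the macrophage score and 96 among the 9 deeper libraries, a setting chosen after seeing the data. The called cathepsins were 5, 6, 6, 6, 5, 5 and 0 with no scaling factor, DESeq2, both limma scales, only the groups compared, the depth class and the macrophage score. In WT the called genes numbered 1457 with no low-count filter, 3622 by DESeq2, 533 with only the groups compared, 324 with the macrophage score and 0 among the deeper libraries (1 per treatment), and the called cathepsins were 3, 3 and 0 in the last 3 of these. DESeq2 called 2 genes between genotypes under CCl4 and 2 in the interaction, limma on log2(TPM + 1) called 1 in the interaction, and the deeper libraries gave 365 in mineral oil. No cathepsin was called between genotypes or in the interaction in any of these fits.

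Some values changed sign between the main fit and the others, and the cause was not tested. Ctsf in ΔEGFR was 0.23 with no scaling factor and 0.33 and 0.34 by limma. Ctsh in WT was 0.01 with upper-quartile factors, 0.42 with none, 0.09 with no low-count filter, 0.35 by limma on both scales, 0.00 with the macrophage score and 0.20 among the deeper libraries. Between genotypes in mineral oil, no low-count filter gave 0.01 for Ctsa and 0.04 for Ctsf, and the depth class gave -0.04 for Ctsb, -0.01 for Ctsd, 0.01 for Ctsf and -0.10 for Ctsl. There Ctsl was -0.01 with RLE factors and by DESeq2, -0.05 by limma on both scales and -0.00 with a minimum of 1 CPM in 3 libraries or only the groups compared. Ctsk was 0.09 by limma on log2(TPM + 0.1) and 0.19 with the macrophage score, and Ctsf was 0.34 among the deeper libraries. In the interaction Ctsh was -0.12 and Ctss 0.53 among the deeper libraries, and Ctsl was 0.00 with the depth class. Of the score relations, 0 passed in either treatment without the 2 libraries farthest from the median score, and 2, Ctss and Ctsk, in mineral oil on log2(TPM + 1). In mineral oil r was then -0.082 for Ctsc, -0.400 for Ctsl and -0.598 for Ctsz without those libraries, and 0.052 for Ctsh on log2(TPM + 1).

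No paired analysis was possible because the labels give no replicate numbers shared by groups. Depth limits Ctsk in mineral oil, where single libraries hold 5 counts.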
